A study of Homo sapiens with 13 samples.

Results

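The loci described here are the S9.6 peaks at 7 genes, PHB2, ALG13, EP300, PURB, RAB1A, SUPT20H and CDV3, out of 19970 protein-coding genes of the RefSeq table. S9.6 is an antibody that binds DNA-RNA hybrids, and its peaks mark stretches of DNA recovered with it. A peak was assigned to a gene when it overlapped the annotated span or the 2 kb on either side, which gave 45 of the 38099 peaks in the 3 deposited lists. The genes were chosen by the deposited fold enrichment, high in both knockdown lists, and by the lack of a control peak at that locus. Those values are therefore a description and support nothing further.

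The peaks come from DRIP-seq, in which sonicated genomic DNA is immunoprecipitated and sequenced, in U2OS cells, a human osteosarcoma line. Cells received a control siRNA (siCtrl), an siRNA against REXO4 (siREXO4) or an siRNA against RNaseH1 (siRNaseH1). Each transfection gave 3 S9.6 libraries and 1 input, and siCtrl cells also gave 1 IgG library. The labels do not say whether the 3 came from separate cultures. The authors merged the 3 S9.6 libraries of each transfection before calling peaks, so each value below is 1 pooled value with no error between replicates, and no test between transfections was possible. Peaks also give no measure of how far REXO4 or RNaseH1 was depleted.

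An R-loop forms when RNA pairs with 1 strand of the DNA duplex and displaces the other, often just behind an RNA polymerase that has left a promoter. RNaseH1 cuts the RNA strand of such hybrids, and REXO4 belongs to the REXO family of predicted exonucleases. In human cells hybrids are often found at GC-rich promoters and near the ends of genes. The 7 genes were not chosen by pathway. PHB2 encodes prohibitin 2, a scaffold protein of the inner mitochondrial membrane. ALG13 acts in the first steps of N-glycan precursor synthesis, and RAB1A is a small GTPase of traffic between the endoplasmic reticulum and the Golgi. EP300 is a histone acetyltransferase and transcriptional coactivator, SUPT20H a component of the SAGA coactivator complex, and PURB a protein that binds purine-rich single-stranded DNA and RNA.

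The RefSeq promoter table (GRCh38.p14, the same coordinates as hg38) held a window for 6 of the 7 genes. RAB1A was not matched. The sequences below are shown because S9.6 peaks of both knockdown lists lie over them, wholly or in part. Each is the stretch before the outermost annotated start, 250 bases or, at PHB2, the 159 bases that separate PHB2 from its divergent neighbour EMG1. MIR200CHG is included because the leading PHB2 locus lies on it. The siRNaseH1 peaks cover 244 bp of the 300 bp window at SUPT20H and 298 bp at CDV3. The other windows lie whole under peaks of both knockdown lists. Capitals mark matches on either strand to CCGGAAGT (an ETS factor core), GGGCGG (the GC box), CCAAT and TATAAA. Overlapping GC boxes at PURB and CDV3 form 1 longer run, and no match overlaps one of another motif.
PHB2, chr12:6970754-6970912, minus strand: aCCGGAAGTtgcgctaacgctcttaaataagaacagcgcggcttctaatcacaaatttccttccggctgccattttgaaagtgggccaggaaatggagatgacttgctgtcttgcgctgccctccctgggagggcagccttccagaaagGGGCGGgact
MIR200CHG, chr12:6962995-6963244, plus strand: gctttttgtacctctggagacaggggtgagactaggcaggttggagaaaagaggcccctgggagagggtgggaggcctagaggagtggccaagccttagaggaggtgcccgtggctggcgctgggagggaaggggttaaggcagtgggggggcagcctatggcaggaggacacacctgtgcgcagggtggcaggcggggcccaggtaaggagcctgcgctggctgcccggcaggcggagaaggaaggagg
ALG13, chrX:111680920-111681169, plus strand: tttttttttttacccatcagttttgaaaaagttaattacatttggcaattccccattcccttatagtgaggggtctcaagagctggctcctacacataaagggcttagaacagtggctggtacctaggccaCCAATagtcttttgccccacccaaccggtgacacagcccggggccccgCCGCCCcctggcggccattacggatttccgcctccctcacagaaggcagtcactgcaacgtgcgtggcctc
EP300, chr22:41092342-41092591, plus strand: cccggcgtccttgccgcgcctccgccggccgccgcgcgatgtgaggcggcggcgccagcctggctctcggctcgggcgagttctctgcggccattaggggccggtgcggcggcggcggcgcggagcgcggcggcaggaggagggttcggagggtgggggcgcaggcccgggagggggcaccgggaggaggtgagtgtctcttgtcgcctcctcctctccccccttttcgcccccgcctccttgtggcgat
PURB, chr7:44885531-44885780, minus strand: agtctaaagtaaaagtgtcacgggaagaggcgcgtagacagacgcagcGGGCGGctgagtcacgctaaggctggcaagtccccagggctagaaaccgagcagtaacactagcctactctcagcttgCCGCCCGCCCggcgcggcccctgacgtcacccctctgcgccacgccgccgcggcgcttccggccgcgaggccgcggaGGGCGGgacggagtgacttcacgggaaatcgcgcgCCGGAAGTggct
SUPT20H, chr13:37059689-37059938, minus strand: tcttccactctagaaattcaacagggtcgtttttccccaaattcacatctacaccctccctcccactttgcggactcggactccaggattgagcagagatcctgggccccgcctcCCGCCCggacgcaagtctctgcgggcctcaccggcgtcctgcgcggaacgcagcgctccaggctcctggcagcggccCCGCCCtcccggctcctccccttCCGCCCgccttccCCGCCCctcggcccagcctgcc
CDV3, chr3:133573436-133573685, plus strand: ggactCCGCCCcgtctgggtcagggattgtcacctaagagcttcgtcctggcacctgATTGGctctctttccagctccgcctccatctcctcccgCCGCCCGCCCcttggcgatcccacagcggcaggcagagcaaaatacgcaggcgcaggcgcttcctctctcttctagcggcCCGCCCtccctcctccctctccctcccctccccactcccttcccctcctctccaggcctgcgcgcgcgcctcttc

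For each gene the leading locus is the pair of overlapping siREXO4 and siRNaseH1 peaks, both without a siCtrl peak, whose lower fold enrichment is highest. Fold enrichment is the authors' value at the peak summit over the caller's local background, and it is on its own scale in each list. With siREXO4 given first, the folds were 33.5 and 45.3 at PHB2 and 33.3 and 49.3 at ALG13. At EP300 they were 27.4 and 25.9, at RAB1A 24.7 and 25.1, and at PURB 21 and 28.5. SUPT20H and CDV3 were higher in the siREXO4 list, with 40.7 and 36.1 against 14.3 and 16.5 in the siRNaseH1 list. In rank among all gained loci of their lists, SUPT20H was number 4 for siREXO4 and 380 for siRNaseH1, and CDV3 number 7 and 257. The other 5 genes ranked between 6 and 60 in both. The choice had no numerical limit. Of 2945 boundary loci gained in both at protein-coding genes, 99 had a lower fold at least as high as that of SUPT20H, and the first locus under it had 14.2. All 7 genes hold a locus gained in both, as do 20.8% of protein-coding genes, a background that the choice of the genes makes uninformative.

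**Figure D1:**
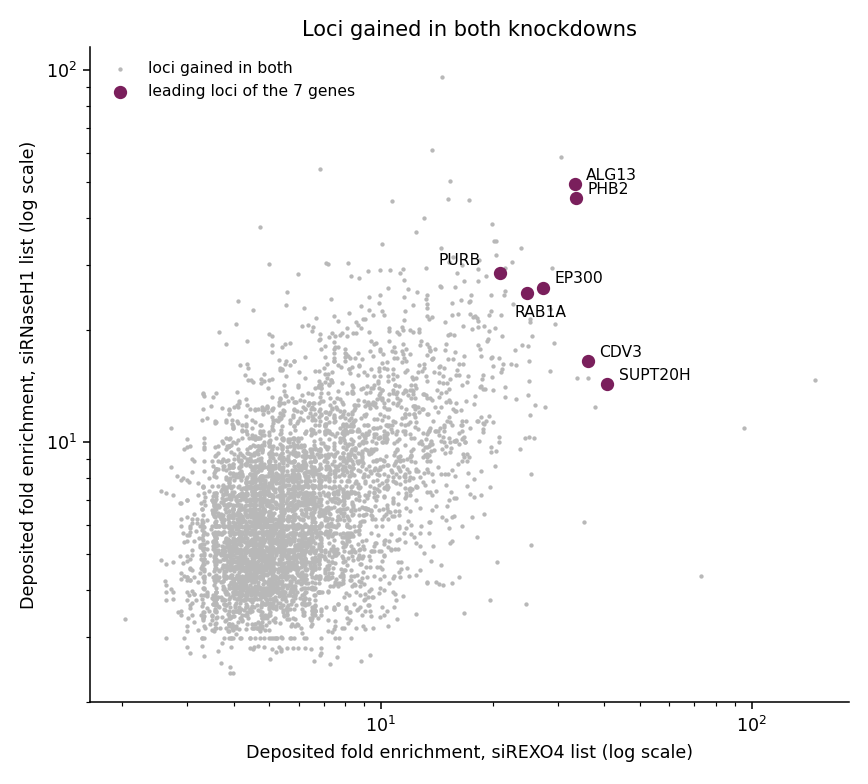
Deposited fold enrichment after siREXO4 (x axis, log scale) and after siRNaseH1 (y axis, log scale) for 5188 loci gained in both knockdowns (grey) and for the leading loci of the 7 genes (purple). ALG13 and PHB2 are high in both lists, while SUPT20H and CDV3 lie to the lower right, at 40.7 and 36.1 for siREXO4 and 14.3 and 16.5 for siRNaseH1.

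Where the promoter table gave a start, the leading loci lay at gene starts, but not always at the start of the listed gene. RAB1A had no start there, so only its distance to a gene boundary is known. Of the 6 genes with a start in the promoter table, 5 had both leading summits within 1 kb of their own outermost start, and all 6 had them within 1 kb of some annotated start. Among all loci gained in both on chromosomes with entries in that table, 43.9% did. Within 2 kb of any gene boundary, start or end, lay 7 of 7 leading loci and 60.4% of all loci gained in both. With a window of 1 kb the count was 7, and with 500 bp it was 4. Counting only the gene's own boundary it was 7 within 2 kb, 6 within 1 kb and 3 within 500 bp. The genes were picked as boundary loci, so these counts only describe them.

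The locus listed under PHB2 does not touch PHB2. PHB2 runs from 6965327 to 6970753 on the minus strand of chromosome 12, and the locus spans 6962307 to 6964183, beyond its far end. The summits were 1933 bp (siREXO4) and 1954 bp (siRNaseH1) from that end and 7359 and 7380 bp from the PHB2 start. They lay 149 and 128 bp inside MIR200CHG, the long noncoding host gene of the microRNAs miR-200c and miR-141. A second noncoding gene, LOC105369634, starts 145 bp away on the opposite strand, and both starts are covered. PTPN6, a tyrosine phosphatase gene, ends nearby at 6961316. The miR-200 family is best known for keeping epithelial cells from a mesenchymal state. Mature sequences of MIR200C and MIR141 in the microRNA reference used follow where they lie whole inside at least 1 knockdown peak. The seed (bases 2 to 8) is in capitals. A mature form missing from that reference would not appear here. No seed is shared among the 3.
hsa-miR-200c-5p, chr12:6963703-6963724, plus strand: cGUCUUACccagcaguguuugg
hsa-miR-200c-3p, chr12:6963742-6963764, plus strand: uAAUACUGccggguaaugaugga
hsa-miR-141-3p, chr12:6964155-6964176, plus strand: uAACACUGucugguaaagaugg
Both knockdown peaks contain miR-200c-5p and miR-200c-3p whole. The siREXO4 peak, which ends at 6964183, also contains miR-141-3p, while the siRNaseH1 peak ends before it, at 6964144.

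Another strong locus lies at the PHB2 start, and it is not a gained one. At the shared start region of PHB2 and EMG1, a ribosome biogenesis gene, the siCtrl list held a peak of fold 4.97 from 6970975 to 6971297. The siREXO4 peak there ran from 6970361 to 6971690 with a fold of 25.4, and the siRNaseH1 peak from 6970509 to 6971762 with 31.9. Their summits lay 297 and 291 bp before the PHB2 start and 137 and 131 bp inside EMG1, against 360 and 200 bp for the siCtrl summit. The siCtrl peak was narrow, at 323 bp, against 1330 and 1254 bp in the knockdown lists. The knockdown peaks overlapped both PHB2 and EMG1, and the siCtrl peak overlapped EMG1 only.

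At ALG13 and CDV3 the leading summits fell between alternative starts. ALG13, on the plus strand of chromosome X from 111681170 to 111760649, has a further start at 111681657. Its summits lay 264 bp (siREXO4) and 308 bp (siRNaseH1) inside the first start and 223 and 179 bp before the further one. CDV3, on the plus strand of chromosome 3 from 133573686 to 133590274, has a further start at 133574434. Its summits lay 529 and 462 bp inside the first start and 219 and 286 bp before the further one. The locus spanned 1238 bp at ALG13, from 111680818 to 111682055, and 1376 bp at CDV3, from 133573408 to 133574783.

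PURB and SUPT20H had their summits just inside the gene. PURB lies on the minus strand of chromosome 7 from 44876299 to 44885530, and its summits were 210 and 213 bp inside its start. SUPT20H lies on the minus strand of chromosome 13 from 37009312 to 37059688, with summits 216 and 269 bp inside. EP300, on the plus strand of chromosome 22 from 41092592 to 41180077, was different in that both summits lay before the gene, by 660 and 648 bp. Only 9.65% of the siREXO4 peak and 29.2% of the siRNaseH1 peak overlapped EP300, and both covered the microRNA gene MIR1281 in front of it. The RAB1A summits lay 553 and 534 bp outside the boundary at 65130106 of a gene that runs from 65086854 on chromosome 2. There 44.5% and 35.2% of the peaks were inside the gene.

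**Figure D2:**
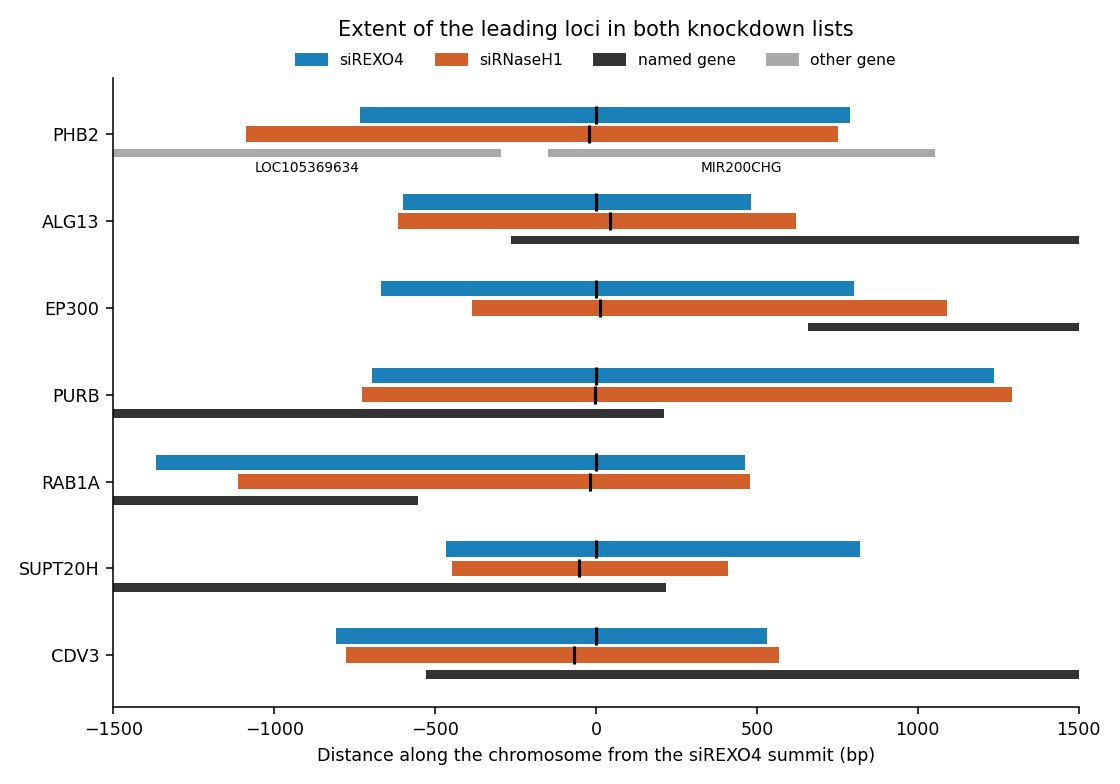
Extent of the leading locus of each gene in the siREXO4 (blue) and the siRNaseH1 (orange) peaks, in bp along the chromosome from the siREXO4 summit, with black ticks at the summits and genes as thin bars cut at the axis limits. The PHB2 locus lies over MIR200CHG and LOC105369634, the EP300 and RAB1A summits lie outside the gene, and the summits of both lists are 3 to 67 bp apart.

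How closely the 2 lists placed the same locus varied between the genes. Summits were 3 bp apart at PURB, 12 bp at EP300, 19 bp at RAB1A, 21 bp at PHB2, 44 bp at ALG13, 53 bp at SUPT20H and 67 bp at CDV3. Their median of 21 bp compares with 72 bp over all 5188 loci gained in both and with 41 bp over the 398 with a fold of at least 10 in both lists. The overlap made up 66.9% (SUPT20H) to 95.7% (PURB) of the joint extent, with a median of 85.4%. Over all loci gained in both the median was 63.9%, and over those 398 it was 78.4%. EP300, at 67.4%, and SUPT20H lay near the first of these medians, and the CDV3 summits were about as far apart as the median of all such loci. DNA was sheared to about 500 bp, so all these distances are well below the size of a fragment. In the median, the loci with a fold of at least 10 had closer summits and more overlap than all loci gained in both. Both measures are therefore not independent of the fold used to pick the genes.

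They were also wide. In the siREXO4 list the widths ran from 1080 bp at ALG13 to 1934 bp at PURB, and in the siRNaseH1 list from 859 bp at SUPT20H to 2020 bp at PURB. The medians were 1471 and 1476 bp, against 477 and 556 bp over all loci gained in both and 1022 and 1047 bp over those with a fold of at least 10. PURB was wider than 99.4% and 99.3% of loci gained in both. SUPT20H was the least wide for siRNaseH1, where it exceeded 77.4% of them. The width of a called peak grows with its height, so these shares are not independent of the fold used to pick the genes.

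For a scale that does not depend on the local background, whole fragments under the summits were worked back from the deposited fold and p-value and divided by the lowest background in the list. The lowest background was 1.28 fragments for siCtrl, 1.41 for siREXO4 and 1.36 for siRNaseH1. Intervals are 95% and exact (Poisson for a count, binomial for a ratio). They cover counting error only, since PCR copies and the variation between cultures are not in them. The leading siREXO4 summits held 70 fragments at PURB, 82 at ALG13, 86 at CDV3, 96 at RAB1A, 97 at SUPT20H, 104 at EP300 and 111 at PHB2 (the interval for PHB2 is 91.3 to 134). The siRNaseH1 summits held 52 at SUPT20H (38.8 to 68.2), 71 at CDV3, 89 at PURB, 109 at RAB1A, 118 at EP300, 119 at ALG13 and 171 at PHB2 (146 to 199). PHB2 was the highest of the 7 in both lists and SUPT20H the lowest in the siRNaseH1 list.

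Per lowest background, 5 of the 7 loci had more fragments after siRNaseH1 than after siREXO4, as did 75.4% of all loci gained in both. By deposited fold 4 did, against 60.7%. The ratio of siRNaseH1 to siREXO4 was 1.6 at PHB2 (1.25 to 2.05) and 1.51 at ALG13 (1.13 to 2.02), where the counting interval lay above 1. It was 1.32 at PURB (0.954 to 1.83), 1.18 at EP300 (0.897 to 1.55), 1.18 at RAB1A (0.888 to 1.57) and 0.857 at CDV3 (0.617 to 1.19), so at these 4 the interval held 1. Only SUPT20H, at 0.557 (0.39 to 0.788), had an interval below 1. Over all loci gained in both the median ratio was 1.3, so a ratio of 1 is not the usual value. The intervals of PHB2 and ALG13 held 1.3, and 70.3% and 64.4% of those loci had a ratio below theirs. The intervals of CDV3 and SUPT20H lay below 1.3. For CDV3 13.8% of those loci had a lower ratio, and for SUPT20H 1.83%.

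Fold and fragments gave different sizes of difference at SUPT20H and CDV3. By fold, the siRNaseH1 value was 0.352 times the siREXO4 value at SUPT20H and 0.456 times at CDV3. At both genes the local background of the siREXO4 peak was the lowest of its list, 1.41, while in the siRNaseH1 list it was 2.70 at SUPT20H and 3.37 at CDV3. The CDV3 summits held 86 and 71 fragments, closer to each other than the folds. EP300 likewise had a higher fold in the siREXO4 list and more fragments in the siRNaseH1 list.

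No siCtrl peak overlapped a leading locus, which is how the loci were picked. A siCtrl call at the lowest background needed at least 7 fragments. At a background as far above the lowest as at these loci it would have needed 7 to 12. Scaled to the siCtrl background, the siREXO4 summits held 6.34 times (PURB) to 12.5 times (SUPT20H) that local limit. The siRNaseH1 summits held 4.89 times (SUPT20H) to 14.6 times (PHB2). The siCtrl coverage below that limit at these loci was not analysed here.

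**Figure D3:**
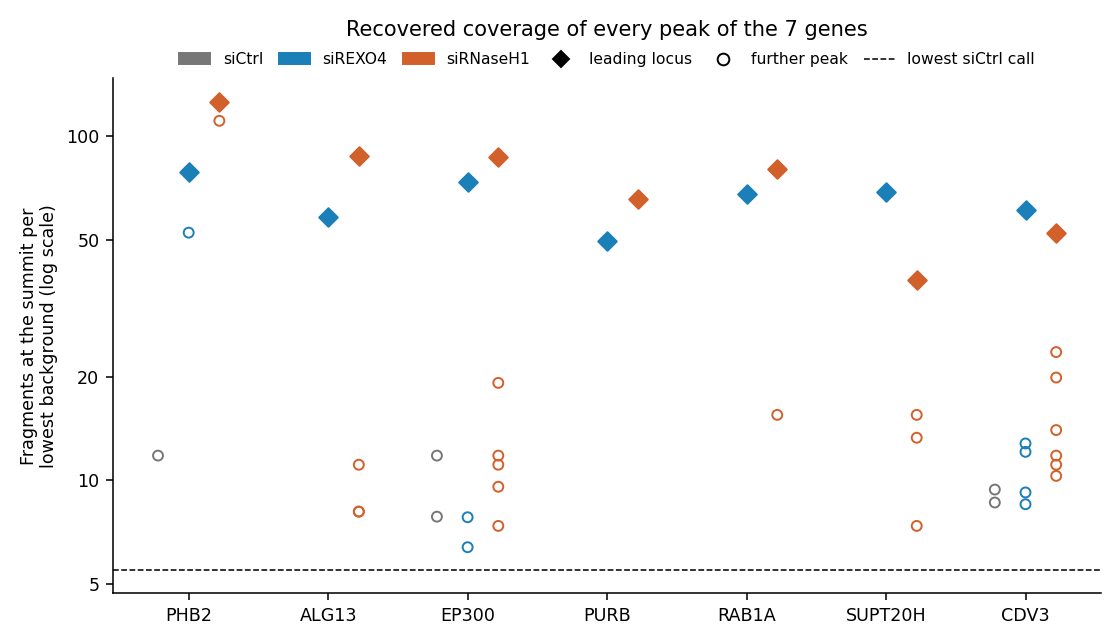
Fragments at the summit divided by the lowest background of the list (log scale) for all 45 peaks of the 7 genes. Diamonds are leading loci, circles are further peaks, grey is siCtrl, blue siREXO4 and orange siRNaseH1, and the dashed line is the lowest siCtrl call. Leading loci lie between 38.3 and 126, and the only further peaks in that range are those at the PHB2 start.

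Although no leading locus had a siCtrl peak, 3 of the 7 genes held one elsewhere in the span or its flanks. Of all protein-coding genes 12% did, and of those holding a locus gained in both 22.7%. ALG13, PURB, RAB1A and SUPT20H held none, as did 88% of all protein-coding genes. The 5 siCtrl peaks were 1 at PHB2, 2 at EP300 and 2 at CDV3, with folds of 4.49 to 4.97 and 10 to 15 fragments. At the PHB2 start the siCtrl summit held 15 fragments, against 74 after siREXO4 and 151 after siRNaseH1. Per lowest background that was 4.47 times (2.54 to 8.38) and 9.47 times (5.56 to 17.3) the siCtrl value. Its siRNaseH1 value of 111 was higher than those of 6 of the 7 leading loci.

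The siCtrl peaks inside EP300 and CDV3 differed less. At CDV3 both were found again in both knockdown lists. The first, from 133577038 to 133577303, had 12, 18 and 32 fragments (siCtrl, siREXO4, siRNaseH1), or 1.36 times (0.619 to 3.09) and 2.51 times (1.26 to 5.35) the siCtrl value per background. The second, from 133585434 to 133585819, had 11, 13 and 27, or 1.07 times (0.442 to 2.64) and 2.31 times (1.11 to 5.16). At EP300 the peak from 41173888 to 41174314 had 10, 11 and 26, a ratio of 0.996 (0.384 to 2.62) and 2.44 (1.14 to 5.68). The other, from 41137021 to 41137442, had 15 in siCtrl and 10 in siRNaseH1 (0.627, 0.252 to 1.49) and no siREXO4 peak. At 3 of these 4 peaks the siRNaseH1 interval lay above 1, and at none did the siREXO4 interval. The same count over all siCtrl peaks found again in the knockdown lists was not made, so this describes these 4 only. Each value is from the summit of its own list, and the summits lay up to 189 bp from the siCtrl summit.

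Beyond the leading loci the siRNaseH1 list held more peaks in these genes. In all, the genes held 14 siREXO4 and 26 siRNaseH1 peaks, which covered 14225 and 19099 bp, against 5 siCtrl peaks and 1824 bp. ALG13, EP300, RAB1A, SUPT20H and CDV3 had more siRNaseH1 than siREXO4 peaks, and PHB2 and PURB had equal numbers. Of all genes with a locus gained in both, 50.9% had more siRNaseH1 peaks. The siRNaseH1 list is also the longer one, at 20954 peaks against 12687. Counting the leading loci, 10 of the 14 siREXO4 peaks and 21 of the 26 siRNaseH1 peaks were gained, against 85.5% and 90.3% of all peaks of those lists. Of the 19 further siRNaseH1 peaks, 13 were in no other list, with folds of 2.77 to 6.79 and 10 to 21 fragments, against 7 in the weakest calls of the list. Of the 7 further siREXO4 peaks 1, inside EP300, was in no other list. Over the whole lists 18911 of 20954 siRNaseH1 peaks and 10851 of 12687 siREXO4 peaks were gained, with 5188 pairs gained in both. Peaks in 1 list alone are therefore common, and these counts only describe the 7 genes.

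Of the 13 peaks in the siRNaseH1 list alone, 10 lay inside the gene and 3, at EP300, RAB1A and SUPT20H, outside it and overlapping its flanks. ALG13 held 3, at 2304, 69637 and 74161 bp from its start, all in the siRNaseH1 list alone, with folds of 5.09, 6.79 and 5.09. SUPT20H also held 3 in that list alone, with folds of 5.95, 5.14 and 4.67. The first of these lay beyond the SUPT20H end, inside EXOSC8, an RNA exosome gene that overlaps it. RAB1A held 1, fold 5.03, outside its other boundary and inside CEP68, a centrosome gene that overlaps RAB1A there. EP300 held 5 further siRNaseH1 and 2 further siREXO4 peaks, of which 1 siRNaseH1 peak, from 41181845 to 41182322 with a fold of 5.39, lay past its end. CDV3 held 6 and 4 over a gene of 16589 bp, and it was the only 1 of the 7 with a second locus gained in both, from 133586052 to 133586433, with folds of 4.58 and 7.15. The widest of its further peaks, 956 bp in the siRNaseH1 list with a fold of 11.8, joined 2 separate siREXO4 peaks of 5.68 and 5.4. PURB held its leading locus and no other peak.

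**Figure D4:**
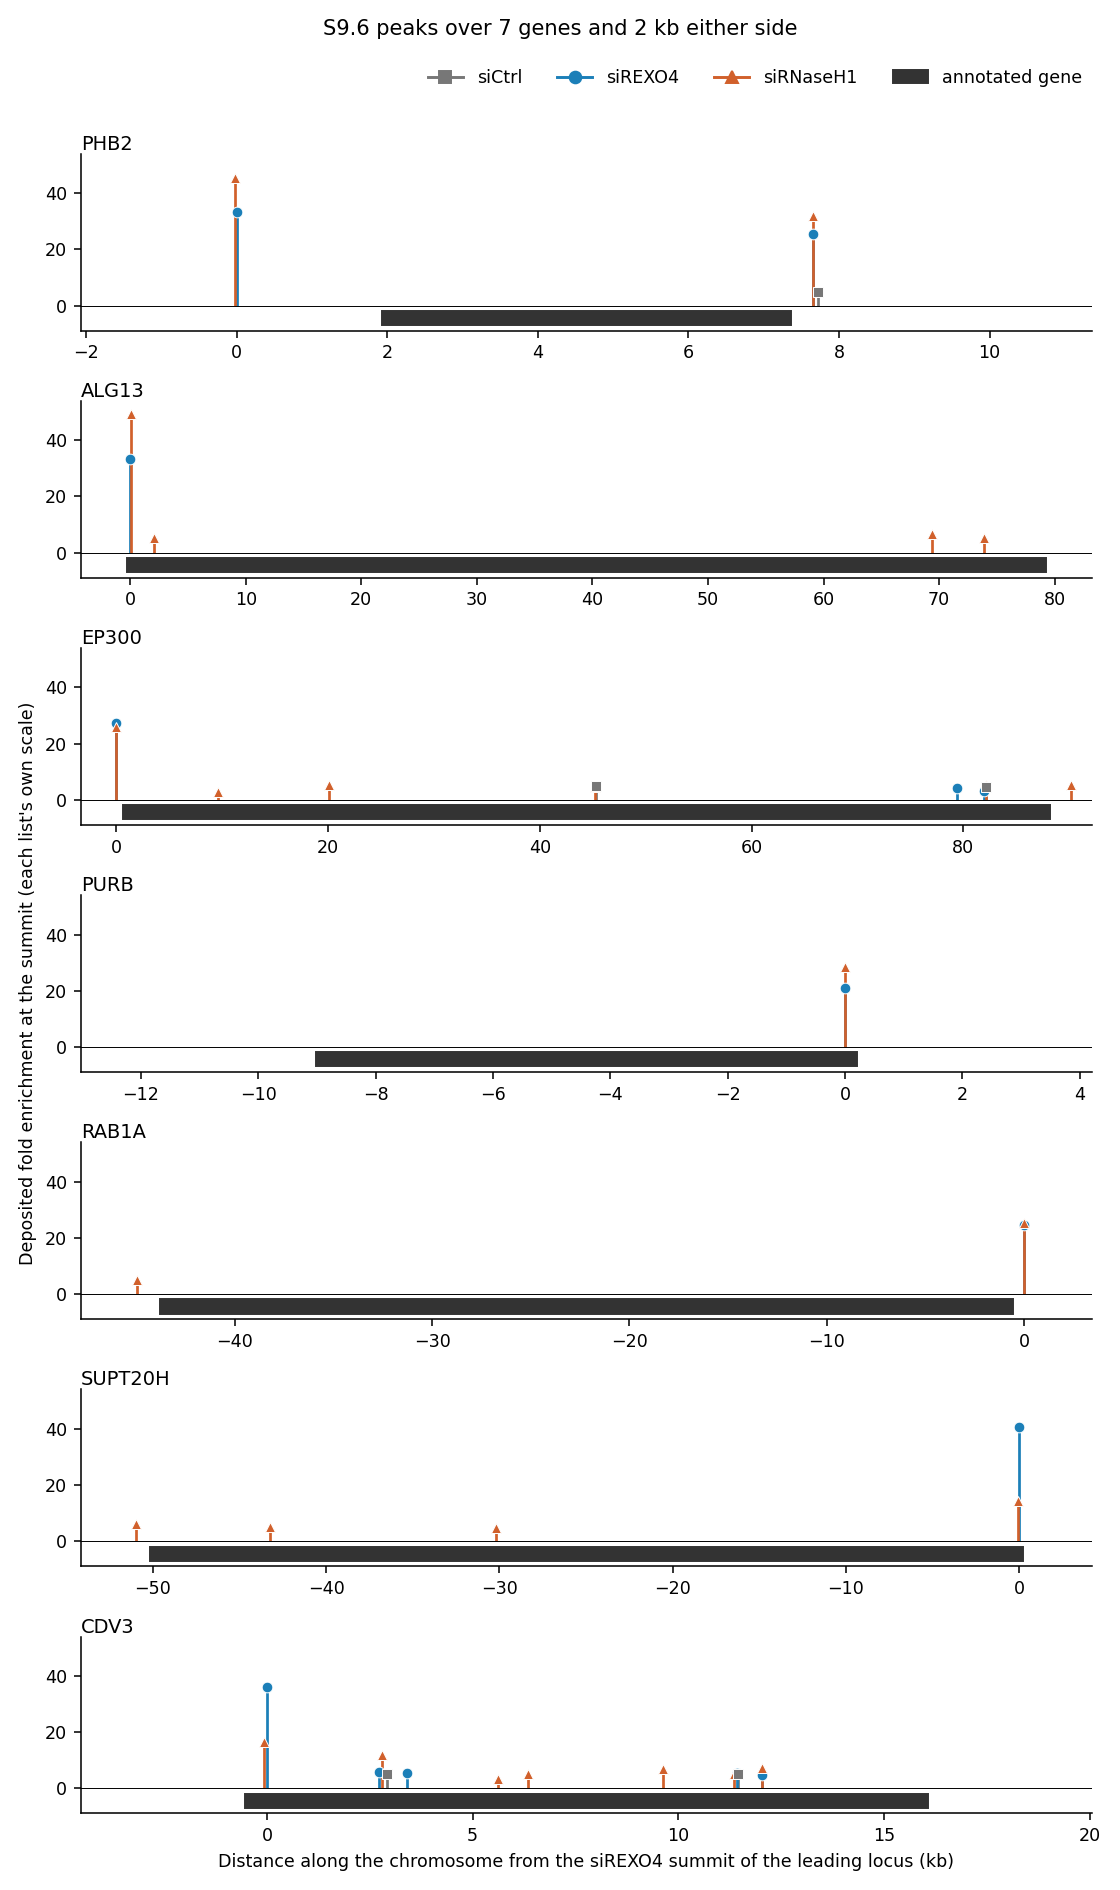
Every peak of the 7 genes and their 2 kb flanks, drawn at its summit in kb along the chromosome from the siREXO4 summit of the leading locus, with the deposited fold enrichment as height (each list on its own scale). Squares are siCtrl, circles siREXO4 and triangles siRNaseH1, and the dark bar is the annotated gene. A single tall pair stands at 1 boundary of each gene, PHB2 has a second pair at its start, and the other peaks have folds of 2.77 to 11.8.

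The surroundings of the loci, out to 50 kb, differed between the genes. PURB has a second strong locus nearby, 27.9 kb away, with folds of 25 and 16.5 and no siCtrl peak. It covers the start of H2AZ2, which encodes a histone H2A.Z variant. Near PHB2, a locus of 10.3 and 11.1 gained in both lies 20.4 kb away at C12orf57, and further siRNaseH1 peaks of 5.68 and 3.32 lie inside EMG1. Near SUPT20H, EXOSC8 held loci gained in both with folds of 6.28 and 7.3, and of 3.56 and 4.86. Beside RAB1A, CEP68 held 1 gained in both, with 5.11 and 3.78. ALG13 and EP300 had no knockdown peak outside their own span and flanks within 50 kb, and each had 1 siCtrl peak there, 42 and 23 kb away. Past the CDV3 end, TOPBP1, a replication checkpoint gene, had 1 siRNaseH1 peak of 6.36 at its boundary within those 50 kb. Over its whole span and flanks TOPBP1 held 3 siRNaseH1 peaks and 1 siREXO4 peak, the latter of 4.98. TRPC5, a channel gene next to ALG13, held none in any list.

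The promoter windows showed no single composition. Over the 300 bp windows, GC content was 54.7% at ALG13, 57% at PHB2, 67.3% at SUPT20H, 68% at CDV3, 70% at PURB and 75.3% at EP300. The median was 62.7% over 15811 protein-coding windows, 67.7% over the 1637 that overlap a locus gained in both and 67.3% over the 250 that overlap a siCtrl peak. The PHB2 window overlaps a siCtrl peak and is not among the 1637. The ratio of observed to expected CpG ran from 0.638 at ALG13 to 1.1 at PURB, against medians of 0.762, 0.895 and 0.898. GC skew, the excess of G over C on the gene's own strand, went both ways. It was 0.17 at EP300 and 0.11 at PURB, and -0.15 at ALG13, -0.23 at SUPT20H and -0.36 at CDV3, which is lower than all but 0.879% of protein-coding windows. The MIR200CHG window, on which the PHB2 locus lies, had the opposite extreme, with a skew of 0.39, above 99.3% of protein-coding windows. Its CpG ratio was 0.365, and 23.5% of protein-coding windows were lower.

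**Figure D5:**
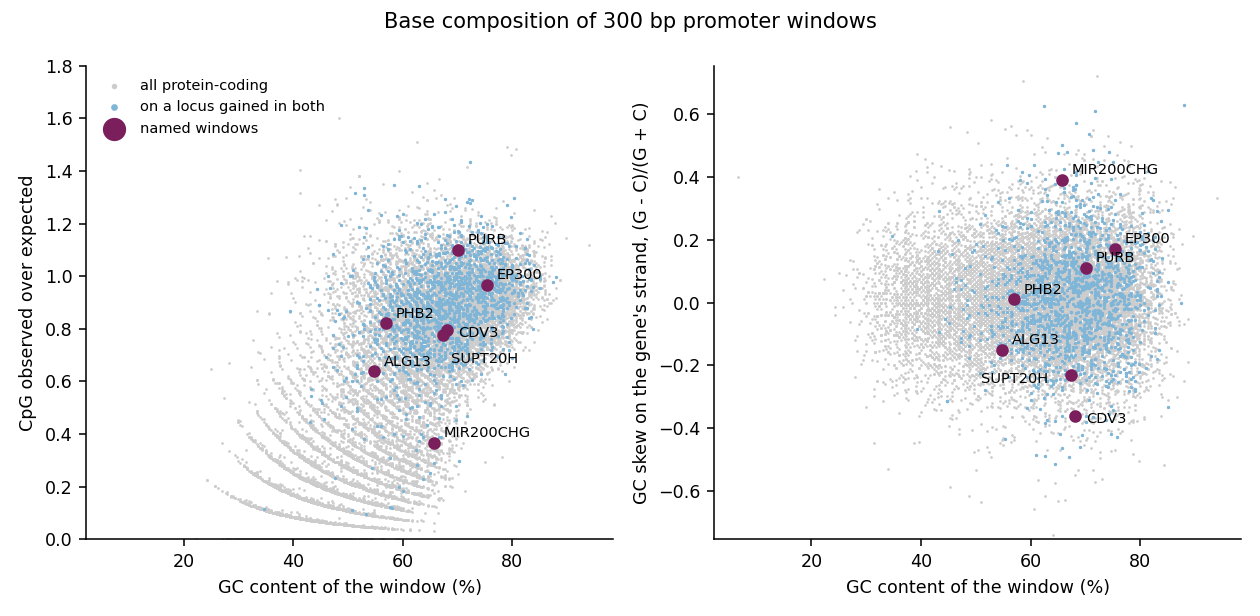
GC content (x axis, %) against the ratio of observed to expected CpG (left) and GC skew on the gene's strand (right) in the outermost 300 bp promoter window of each protein-coding gene (grey), those overlapping a locus gained in both (light blue), and the named windows (purple). The left axis ends at 1.8, which leaves out 1 window. MIR200CHG, at a skew of 0.39, and CDV3, at -0.36, lie on opposite sides, and MIR200CHG has the lowest CpG ratio of the named windows, 0.365.

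The motif matches marked in the sequences were counted over whole windows, which reach 50 bases past the start. The ETS core was present in 2 of the 6 member windows, PHB2 and PURB, and in 6.16% of protein-coding windows and 12.2% of those on a locus gained in both. The GC box was present in 5 of 6, against 58.3% and 78.6%, with EP300 the window that lacked these letters. CCAAT was present in 3 of 6, at ALG13, SUPT20H and CDV3, against 36.4% and 39.6%. TATAAA was present in none, against 9.75% and 4.34%. The second share of each pair is for windows on a locus gained in both, and the PHB2 window is not one of them. The MIR200CHG window, on which the leading PHB2 locus lies, held the GC box but no ETS core, CCAAT or TATAAA. A match is only a run of letters, and no factor binding was measured here.

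The genes most like these in both lists were sought among 2737 protein-coding genes without a siCtrl peak that hold a boundary locus gained in both. Likeness was the distance in log2 fold of the 2 lists from the members' medians, 33.3 and 25.9. The nearest was ZC3H4, a zinc finger gene, with folds of 28.6 and 22.8 (distance 0.29). HES4, a transcriptional repressor gene, followed with 29.5 and 20.8 (0.36). PFKFB2 and YOD1 share 1 locus, with 25.3 and 21.5 (0.48), and KMT5C, a histone H4 lysine methyltransferase gene, had 25.3 and 21 (0.50). Summits of the 2 lists were 37 bp apart at ZC3H4, 14 bp at PFKFB2 and YOD1 and 24 bp at KMT5C. At HES4 they were 518 bp apart, within a locus of 2806 and 2993 bp.

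Partners and relatives of the 7 genes were counted from lists of 56 genes in all. Of these, 21 (37.5%) held a locus gained in both, against 20.8% of all protein-coding genes, and 11 (19.6%) held a siCtrl peak, against 12%. Gained loci were held by 29 for siREXO4 and 32 for siRNaseH1, 51.8% and 57.1%, against 31.3% and 37.6%. Gene length and expression, which bear on these shares, were not matched. None of the partner loci reached 14.3, the lower fold of SUPT20H, in both lists. Among all 2945 boundary loci gained in both at protein-coding genes, only 99 did. The leading partner loci were at ATXN7L3 (14 and 12.4) and ATXN7 (8.65 and 15.1), subunits of the SAGA deubiquitinase module. KAT5, the TIP60 acetyltransferase gene, was also among them, with 15.9 and 10.1.

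By list, SAGA subunits, the partners of SUPT20H, held a locus gained in both in 8 of 16 genes, with a siRNaseH1 gained locus in 14 and a siREXO4 gained locus in 9. A siCtrl peak was found in 6 of the 16. Of 8 histone acetyltransferase genes besides EP300, 4 held a locus gained in both. CREBBP, the closest relative of EP300, held 3, the leading one with folds of 5.44 and 6.34. That locus lay 30450 bp from the nearest start in the promoter table. KAT7 held 7, the leading one with 6.8 and 7.55. Of the 9 early secretory genes of the RAB1A list 3 did, TRAPPC1 (8.59 and 4.38), TRAPPC3 (5.68 and 4.14) and RAB2A (3.33 and 2.66), and RAB1B, the near copy of RAB1A in function, held no peak in any list. Of the 14 lipid-linked oligosaccharide genes 3 did, ALG5 (6.28 and 7.3), ALG9 (7.06 and 6.16) and ALG3 (4.02 and 4.52), and ALG14, the partner subunit of ALG13, held none. The ALG5 locus is the EXOSC8 locus named above, near SUPT20H. Of the 7 inner mitochondrial membrane genes 2 did, YME1L1 (5.19 and 7.92) and SPG7 (4.78 and 7.52), while PHB1, the binding partner of PHB2, held no peak in any list. PURA held 1, of 3.72 and 7.06, and PURG none.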

How the data were processed

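The data are 3 DRIP-seq peak lists of U2OS cells, 1 per transfection. Samples were grouped by title. Per the submitters' processing notes, which give no roles, the build was hg38 and MACS2 2.1.0.20150731, HISAT2 2.2.1, SAMtools 1.17, Trim Galore 0.6.10, deepTools 3.5.1 and Cufflinks were used. What the caller used as control, how duplicates were treated and the read depth were not given in the sources used here. Per the file names, the authors merged the 3 S9.6 libraries of a group before peak calling. The deposited fold enrichment (a ratio) is that of the summit, as are the deposited −log10 q and −log10 p, and the deposited score restates the −log10 q. Input, IgG and per-replicate signals were not analysed here.

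Only chromosomes 1 to 22 and X entered. A knockdown peak counted as gained unless 1 bp or more of it lay under a siCtrl peak, and gained in both when gained peaks of both lists overlapped by 1 bp. Each locus was used in 1 pair only, which gave 5188. Gene spans came from RefSeq, GRCh38.p14. Strand and starts came from its promoter table, which has no exons, so exon and intron were not told apart. Fragments n and background b solve fold = (n + 1)/(b + 1) and p = P(Poisson(b) > n), within 0.001 in −log10 p, for all peaks with −log10 p below 300.

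The genes and lists were chosen with earlier results of these data known. The text names the 7 genes, genes under or beside their peaks, the nearest protein-coding genes, the 5 genes most alike in log2 fold of the 2 lists, and up to 3 genes per partner list by lower fold. Partners without a locus gained in both were named after their values were seen. SciPy 1.17.1, pandas 2.3.3 and NumPy 2.4.6 ran under Python 3.11.15, figures were drawn with Matplotlib 3.10.9, and the code was tested on simulated data.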

Additional observations from a re-analysis of the deposited data

How the results depend on the processing

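No paired analysis was possible because the deposited lists merge the replicates of each transfection, so no replicate can be left out or blocked either. Stricter peaks (fold of at least 5 or −log10 q of at least 5), a reciprocal overlap of 50% and flanks of 0 or 5 kb kept the number of genes with a locus gained in both at 6 or 7. It was 6 without a flank, since the PHB2 locus lies outside the gene. The 2 kb window for a gene boundary mattered. Within 500 bp of any boundary lay 4 of the 7 leading loci, and within 1 kb all 7. For the gene's own boundary, counted after seeing the data, 3 lay within 500 bp and 6 within 1 kb. Genes without a siCtrl peak numbered 3 to 5 with other flanks or stricter knockdown peaks, and 7 when siCtrl peaks under a −log10 q of 5 were dropped, an alternative added after seeing the data. The siREXO4 and siRNaseH1 peaks numbered 11 to 14 and 20 to 29. By deposited fold, 4 rather than 5 loci were higher in the siRNaseH1 list. The peaks in the siRNaseH1 list alone held 10 to 21 fragments, so a lack of a call in another list does not show a lack of signal there.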
